A study of Homo sapiens with 10 samples.

Results

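Amino acid transporters are membrane proteins that carry amino acids into cells or exchange them across the membrane. The counts of 10 such genes, chosen by gene name with earlier results of these data known, were described here. They are SLC3A2, SLC7A5, SLC7A11, SLC43A1, SLC7A1, SLC1A4, SLC1A5, SLC38A1, SLC38A2 and SLC6A9, and all 10 were found among the 32738 genes of the count table. Cells of the human hepatoma line HepG2 grew for 17 h in regular medium (untreated) or in medium with 2 µg/ml tunicamycin. Each condition had 5 libraries, from cultures of this line treated on separate days. Tunicamycin blocks N-linked glycosylation and so causes stress of the endoplasmic reticulum (ER).

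Many amino acid transporters work as pairs or families with shared substrates. SLC3A2 is a heavy chain that brings light chains such as SLC7A5, which exchanges large neutral amino acids, and SLC7A11, which exchanges cystine for glutamate, to the cell surface. SLC1A5 and SLC38A2 take up glutamine and other neutral amino acids, and SLC7A1 takes up arginine and lysine. Several of these genes are known targets of ATF4, the transcription factor of the integrated stress response, which raises amino acid uptake and synthesis when translation is restrained.

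Sequencing started from 3′ ends of transcripts, so that a transcript gives about 1 fragment whatever its length, and isoforms with a common end are not told apart. Totals were between 4242538 and 4888292 counts in untreated libraries and between 2234682 and 5029864 counts with tunicamycin. Normalized counts are counts divided by the library size scaled with TMM (trimmed mean of M values) and multiplied by the mean scaled size. All 9 hepatocyte markers examined were detected, among them albumin and apolipoprotein B. They summed to between 65293 and 84033 normalized counts in untreated libraries and between 52238 and 58674 with tunicamycin. Of the 9, 5 were called lower and 0 higher, by edgeR and by DESeq2 (1 was higher at an unadjusted p under 0.05). Over all genes tested, edgeR called 16.6% lower and 17.6% higher. Albumin, AFP, SERPINA1 and HNF4A were the markers that did not pass edgeR's test. Of 8 markers of leukocytes, endothelium and stroma found in the table, PTPRC, COL1A2 and DCN had no count, and the sum of the 8 was between 1331 and 1749 against between 1292 and 2162. Of these 8, 3 were tested, CD68 was called lower by edgeR, and DESeq2 called 1 lower and LYZ higher. Most of that sum was LYZ (lysozyme), with 1346 ± 201 and 1694 ± 324 normalized counts (SD, n = 5 each). The part of these markers in the results below was not tested. In such bulk samples, fewer cells of a type and less RNA per cell cannot be told apart.

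Windows around annotated RefSeq start sites of the members (GRCh38.p14, 250 bases before to 50 after the start) were searched on both strands for short motifs. Which of these starts the cells use was not measured. Windows were found for 9 of the 10 genes, 16 windows in all, and SLC7A11 was not among them. The core of the C/EBP-ATF element, TGATGNAA, which ATF4 binds as a dimer with a C/EBP protein, was present in 1 window each of SLC3A2, SLC7A1, SLC1A4, SLC1A5 and SLC38A1. It was present in 3.62% of all 35116 windows. In SLC1A5 the window with this match is at a RefSeq start in an intron, 3780 bases after the canonical start. The window at the canonical start of SLC1A5 held no match to any motif searched. The AP-1 motif, searched as TGANTCA with any base at N, was present in 1 window each of SLC3A2 and SLC38A1 and in 7.71% of all windows. It is broader than the consensus TGA(G/C)TCA that the authors give, so 7.71% is not the share for that consensus. These matches are letters in a window and say nothing about binding.

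The 5 stretches run from 100 bases before the start to 30 after it, with matches to TGATGNAA or TGANTCA in capitals. SLC3A2, SLC38A1 and SLC7A1 are shown as genes that rose, and SLC1A4 and SLC38A2 as genes that did not pass the test (values are given with each gene). SLC6A9 and SLC1A5 also rose and are not shown. For SLC3A2, SLC38A1 and SLC1A4 the window with a match is shown, and their other windows held no match to any motif searched. The stretches therefore do not show whether a match goes with a rise. The windows shown for SLC7A1, SLC1A4 and SLC38A2 lie at the start of the canonical GENCODE transcript. Those shown for SLC3A2 and SLC38A1 lie at RefSeq starts in an intron of it.
SLC3A2 (plus strand, chr11:62881599-62881728): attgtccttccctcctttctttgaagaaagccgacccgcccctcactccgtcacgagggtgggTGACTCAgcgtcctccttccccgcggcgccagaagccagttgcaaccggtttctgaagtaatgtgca
SLC38A1 (minus strand, chr12:46266487-46266616): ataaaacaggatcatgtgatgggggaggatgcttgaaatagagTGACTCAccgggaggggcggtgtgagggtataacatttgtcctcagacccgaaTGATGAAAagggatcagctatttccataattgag
SLC7A1 (minus strand, chr13:29595659-29595788): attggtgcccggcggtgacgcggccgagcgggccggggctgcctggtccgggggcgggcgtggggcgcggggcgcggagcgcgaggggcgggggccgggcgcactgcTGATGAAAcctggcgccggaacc
SLC1A4 (plus strand, chr2:64989299-64989428): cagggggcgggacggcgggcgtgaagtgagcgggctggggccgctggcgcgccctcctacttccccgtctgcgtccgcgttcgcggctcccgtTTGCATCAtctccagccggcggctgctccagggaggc
SLC38A2 (minus strand, chr12:46372744-46372873): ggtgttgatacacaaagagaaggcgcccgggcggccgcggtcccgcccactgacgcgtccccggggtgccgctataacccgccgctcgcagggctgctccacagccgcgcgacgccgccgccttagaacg

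In SLC1A4 the match, TTGCATCA, is on the strand opposite to the gene. In SLC3A2 a match on the opposite strand, TTACATCA, lies at bases 38 to 45 after the start, past the stretch shown. The windows of SLC38A2 and of SLC6A9, the gene that rose most, held no match to any motif searched. The E-box CACGTG was found in 1 window each of SLC7A5, SLC1A5 and SLC43A1 and in 7.26% of all windows. The core of the antioxidant element, TGACNNNGC, was found in 1 window each of SLC7A5, SLC3A2, SLC7A1 and SLC1A5 and in 13.3% of all windows. In SLC3A2 the latter match overlaps the AP-1 match. The ER stress element was in no window of the members and in 0.0769% of all windows.

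With tunicamycin, 6 of the 10 transporters rose and 4 did not pass the test. The genes that rose were SLC6A9, SLC3A2, SLC38A1, SLC7A1, SLC7A11 and SLC1A5, by 1.51-fold to 3.24-fold. SLC7A5, SLC1A4, SLC43A1 and SLC38A2 had fold changes between 0.867 and 0.924. The test was edgeR's quasi-likelihood test over 12733 genes with Benjamini-Hochberg adjustment at 0.05, and over all those genes it called 17.6% higher and 16.6% lower. None of the 10 members was called lower in this edgeR fit, and 1 was lower at an unadjusted p under 0.05. DESeq2 called 1 lower, as did edgeR with the replicate number as a block. The median log2 fold change of the 10 members was 0.69, against -0.0033 over all genes tested. In each of the 6 genes that rose, every tunicamycin library lay above every untreated one, as for 11.7% of all genes tested. No member had all tunicamycin libraries below all untreated ones, as for 11.9% of genes tested. With library size as the only scaling, 40.8% of all called genes were higher, against 51.4% with TMM, while the members split into 6 higher and 2 lower.

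**Figure D1:**
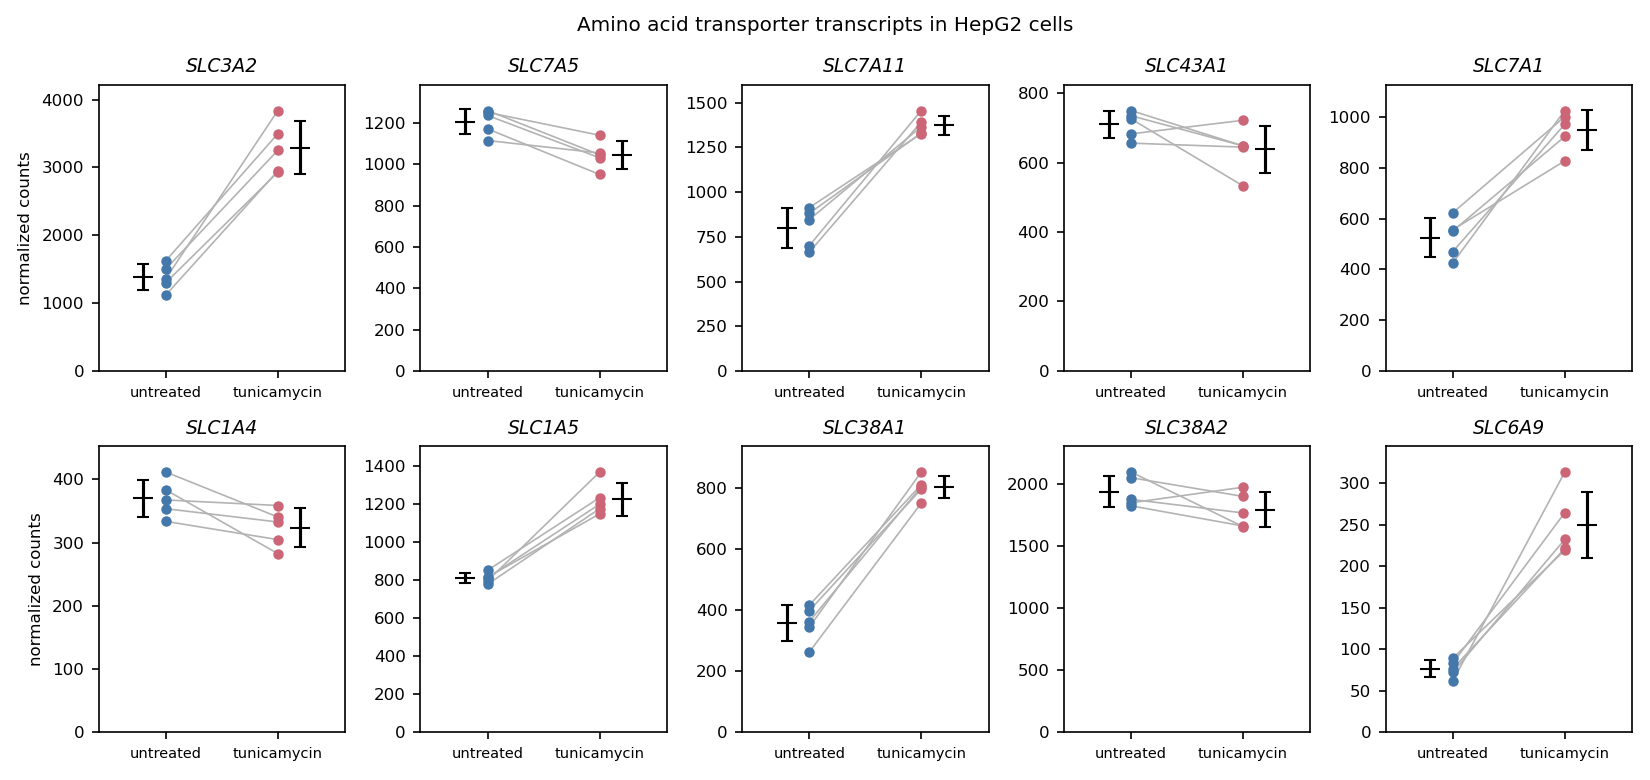
Normalized counts (vertical axis, from 0) of the 10 transporter genes in each untreated and tunicamycin library. Points are libraries, grey lines join libraries of the same replicate number, and black bars beside the points are mean ± SD (n = 5). SLC3A2, SLC7A11, SLC7A1, SLC1A5, SLC38A1 and SLC6A9 show no overlap between conditions, and the other 4 genes overlap.

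SLC3A2 (ENSG00000168003), the common heavy chain, lies on the plus strand of chromosome 11 from 62856004 to 62888880 (GRCh38, GENCODE). Untreated replicates 1 to 5 had 1121, 1302, 1503, 1362 and 1625 normalized counts of it, and tunicamycin replicates 1 to 5 had 2949, 2930, 3252, 3838 and 3497. Values of the other genes follow in the same order of replicates. The lowest treated library was well above the highest untreated one. Its log2 fold change was 1.25 (standard error 0.11, adjusted p = 4.11e-08 in edgeR's quasi-likelihood test), which exceeded that of 96.4% of genes tested. The counts are of transcripts, and the glycosylated SLC3A2 protein was not measured.

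The light chains of SLC3A2 took different courses. SLC7A11 (ENSG00000151012, chromosome 4 from 138164097 to 138242349, minus strand), the cystine-glutamate exchanger, had 664, 701, 882, 847 and 914 normalized counts untreated. With tunicamycin it had 1394, 1457, 1331, 1367 and 1328. The treated libraries were close together and the untreated ones more scattered, with SDs of 53.1 and 112. Its log2 fold change was 0.78 (standard error 0.10, adjusted p = 3.9e-06 in edgeR's test), and it was higher in 5 of 5 pairs of libraries with the same replicate number.

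SLC7A5 (ENSG00000103257, chromosome 16 from 87830023 to 87869507, minus strand), the large neutral amino acid exchanger, had 1251, 1236, 1115, 1260 and 1171 normalized counts untreated. With tunicamycin it had 1140, 1031, 1054, 1045 and 950. The conditions overlapped through untreated replicate 3 and tunicamycin replicate 1, although the treated library was the lower one in 5 of 5 pairs. The log2 fold change was -0.21 (95% interval -0.37 to -0.04, adjusted p = 0.053 in edgeR's test). With the replicate number as a block it was -0.21 with an adjusted p of 0.0387, DESeq2 gave an adjusted p of 0.0251, and without tunicamycin replicate 1 it was -0.24 with an adjusted p of 0.0327, so that the call depended on the fit and a rise did not lie within the interval.

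SLC7A6, a light chain that exchanges basic for neutral amino acids, fell, with 118 ± 7.07 normalized counts untreated and 79.5 ± 17 with tunicamycin (SD, n = 5 each, log2 fold change -0.54, adjusted p = 0.00638 in edgeR's test). The other light chains SLC7A7, SLC7A8 and SLC7A10 were at 0 counts in every library, a result that still allows 3 counts per library. How the counting treated strand and reads with several matches is not given, so these genes are described as listed at 0, and the sums and ratios of light chains cover the listed counts. Of the counts of these 6 light chains, SLC7A5 held 56.8% ± 3.87 untreated and 41.8% ± 1.46 with tunicamycin, and SLC7A11 held 37.6% ± 4.21 and 55.1% ± 1.59 (SD, n = 5 each). SLC7A5 was ahead of SLC7A11 in each untreated library and behind it in each treated one.

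Ratios of counts within a library do not depend on how libraries are scaled, and 4 were tested by exact two-sided permutation over the libraries. They use the same counts as the tests of single genes, and these genes were chosen with earlier results of these data known. Their p-values are therefore no independent evidence beside the calls of single genes. SLC3A2 over the sum of its light chains was 0.548, 0.635, 0.713, 0.612 and 0.739 in untreated replicates 1 to 5 and 1.12, 1.14, 1.31, 1.55 and 1.49 with tunicamycin. In each untreated library the light chains together outnumbered the heavy chain, and in each treated library the heavy chain outnumbered them. The ratio was 2.03-fold higher with tunicamycin (exact permutation p = 0.00794, the smallest that 5 against 5 allow, and the same after adjustment over the 4 ratios). When libraries were paired by day, exact sign flips gave p = 0.0625 for each of the 4 ratios. That is the smallest p that sign flips of 5 pairs allow, so the sign-flip test could not pass at 0.05. No other paired test of the ratios was run. SLC7A11 over SLC7A5 was 0.531, 0.567, 0.791, 0.672 and 0.780 in untreated libraries and 1.22, 1.41, 1.26, 1.31 and 1.4 in treated ones. This ratio was 2.00-fold higher with tunicamycin (exact permutation p = 0.00794).

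**Figure D2:**
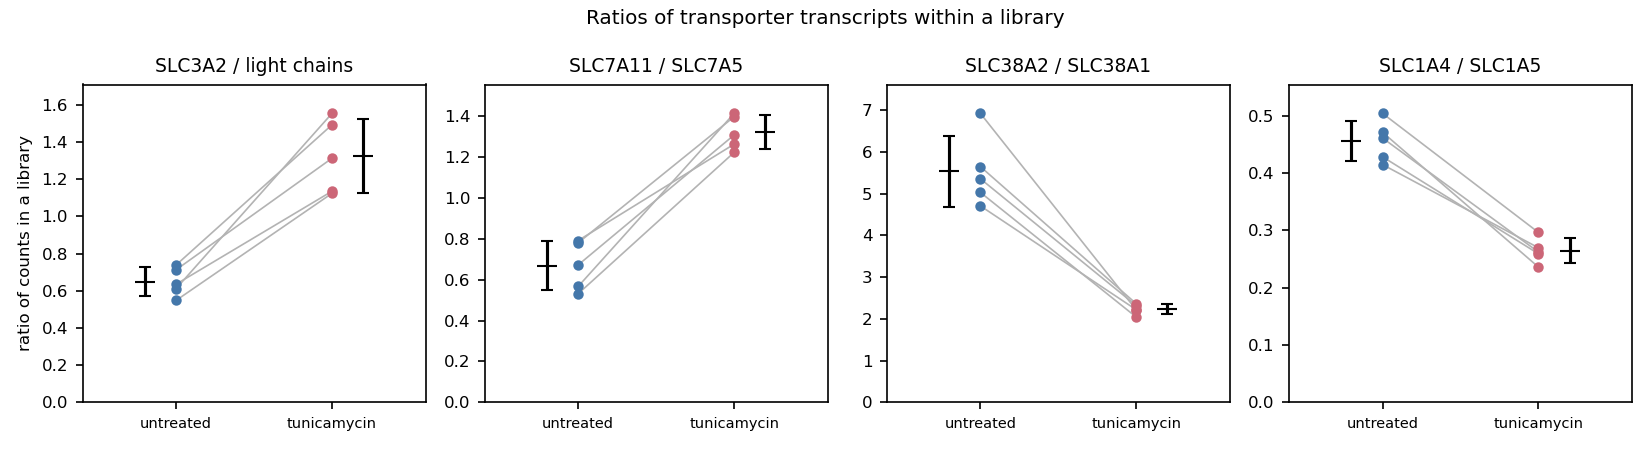
Ratios of counts within a library (vertical axis, from 0) for 4 pairs of transporter transcripts, where light chains are SLC7A5, SLC7A6, SLC7A7, SLC7A8, SLC7A10 and SLC7A11. Points are libraries, grey lines join the same replicate number and black bars are mean ± SD (n = 5). In each panel the untreated and tunicamycin libraries do not overlap.

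SLC43A1 (ENSG00000149150, chromosome 11 from 57484534 to 57515780, minus strand) carries large neutral amino acids without a heavy chain. It had 750, 735, 682, 656 and 726 normalized counts untreated and 648, 648, 722, 644 and 533 with tunicamycin. The lowest value was that of tunicamycin replicate 5, the shallowest library. The log2 fold change was -0.15 (95% interval -0.33 to 0.04, adjusted p = 0.209 in edgeR's test).

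SLC7A1 (ENSG00000139514, chromosome 13 from 29509414 to 29595688, minus strand), the main carrier of cationic amino acids in most cells, had 425, 470, 623, 551 and 556 normalized counts untreated. With tunicamycin it had 1025, 971, 1001, 923 and 827, and the conditions did not overlap. Its log2 fold change was 0.86 (standard error 0.10, adjusted p = 2.92e-06 in edgeR's test). The ratios within replicate pairs ranged from 0.57 to 1.27 on the log2 scale.

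SLC1A4 and SLC1A5 are paralogs that exchange alanine, serine and cysteine, and SLC1A5 also carries glutamine. SLC1A5 (ENSG00000105281, chromosome 19 from 46774883 to 46788594, minus strand) had 817, 779, 853, 797 and 814 normalized counts untreated and 1150, 1177, 1235, 1370 and 1201 with tunicamycin. It rose by the least among the 6 genes, by 0.59 on the log2 scale (standard error 0.08, adjusted p = 1.1e-05 in edgeR's test). SLC1A4 (ENSG00000115902, chromosome 2 from 64988477 to 65023865, plus strand) had 411, 333, 353, 367 and 383 normalized counts untreated and 340, 305, 333, 359 and 282 with tunicamycin. It was lower in 5 of 5 pairs, but the conditions overlapped. The log2 fold change was -0.19 (95% interval -0.38 to 0.01, adjusted p = 0.13 in edgeR's test). Within libraries, SLC1A4 over SLC1A5 was 0.504, 0.428, 0.415, 0.461 and 0.471 untreated and 0.296, 0.259, 0.270, 0.262 and 0.236 with tunicamycin. It was 0.581 of its untreated level on average (exact permutation p = 0.00794), without overlap.

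SLC38A1 and SLC38A2, neighbours on chromosome 12, encode sodium-coupled carriers of small neutral amino acids. SLC38A1 (ENSG00000111371, from 46183063 to 46270017, minus strand) had 263, 345, 363, 399 and 417 normalized counts untreated and 751, 852, 805, 797 and 811 with tunicamycin. Every treated library was far above the untreated ones, and the log2 fold change was 1.17 (standard error 0.11, adjusted p = 9.46e-08 in edgeR's test). SLC38A2 (ENSG00000134294, from 46358188 to 46372773, minus strand) had 1827, 1851, 2053, 1879 and 2099 normalized counts untreated and 1664, 1977, 1902, 1769 and 1659 with tunicamycin. The conditions overlapped, 1 of 5 pairs was higher with tunicamycin, and the log2 fold change was -0.11 (95% interval -0.29 to 0.06, adjusted p = 0.32 in edgeR's test). SLC38A2 over SLC38A1 was 6.92, 5.36, 5.65, 4.71 and 5.03 in untreated libraries and 2.22, 2.32, 2.36, 2.22 and 2.04 in treated ones, a fall by 1.3 on the log2 scale (exact permutation p = 0.00794).

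SLC6A9 (ENSG00000196517, chromosome 1 from 43991500 to 44031467, minus strand), a glycine transporter, was the least abundant member and changed most. It had 72.3, 76.7, 89.2, 61.8 and 83.3 normalized counts untreated and 232, 221, 219, 313 and 264 with tunicamycin. The log2 fold change was 1.70 (standard error 0.13, adjusted p = 1.29e-08 in edgeR's test), above that of 98.3% of genes tested. Exons of CCDC24, on the opposite strand, overlap the last 500 bases of its canonical transcript. That transcript ends at 43996483, while the annotated gene extends to 43991500, and where the reads of these libraries fall was not examined. CCDC24 itself had 8.67 ± 1.12 and 5.58 ± 3.46 normalized counts (SD, n = 5 each), far below SLC6A9 in either condition. The strand setting of the counting is not given, so these counts do not measure the reads of CCDC24 in the shared bases. Its part in the SLC6A9 counts was not tested. No other member had an exon of another gene in the last 500 bases of its canonical transcript. Opposite-strand exons overlap SLC7A11, SLC7A5 and SLC1A5 elsewhere.

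**Figure D3:**
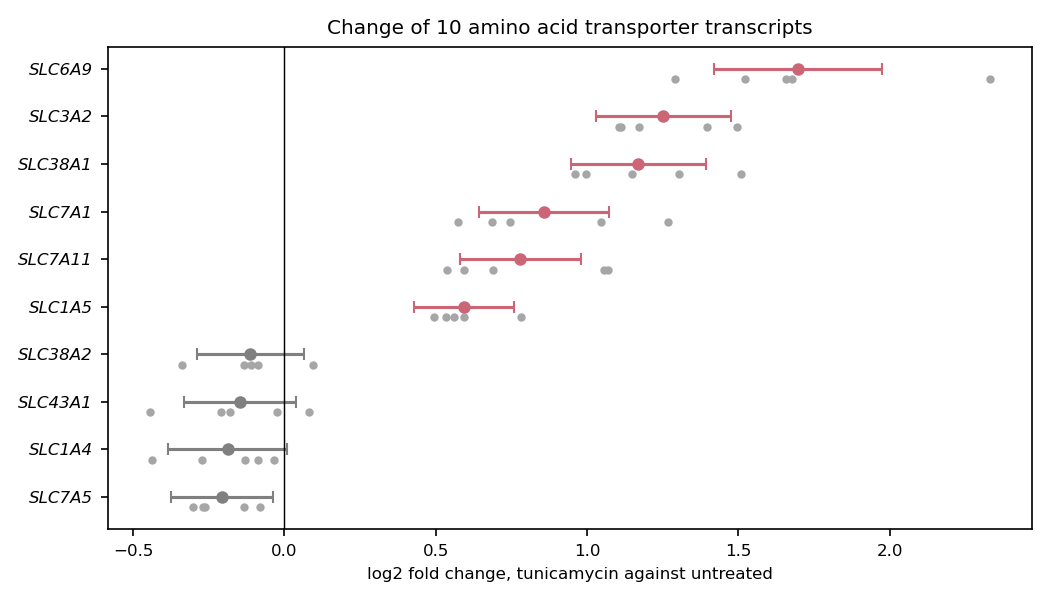
Log2 fold change of each transporter with tunicamycin against untreated (horizontal axis), with its 95% interval from edgeR's fit. Red marks an adjusted p under 0.05, dark grey the others, and small grey points are the 5 log2 ratios within replicate pairs. The 6 red genes lie between 0.59 and 1.70 and the 4 grey ones between -0.21 and -0.11.

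The order of the transcripts by level differed between conditions. Since 3′ counts are about 1 per transcript, levels of different genes were set side by side without division by length. In untreated cells SLC38A2 was the most abundant, with 1942 ± 125 normalized counts (SD, n = 5), followed by SLC3A2 and SLC7A5, whose ranges overlapped. SLC1A5, SLC7A11 and SLC43A1 came next, and each overlapped its neighbour. SLC7A1 stood below these, then SLC1A4 and SLC38A1, which overlapped, and SLC6A9 was last. With tunicamycin SLC3A2 was first, with 3293 ± 384, ahead of SLC38A2 with 1794 ± 142 in 5 of 5 libraries. SLC7A11 and SLC1A5 were next and overlapped in range. They lay above SLC7A5, which had rank 3 in untreated cells and rank 5 with tunicamycin. Below it, SLC7A5 with SLC7A1 and SLC7A1 with SLC38A1 overlapped in range, but the first was above the second in 5 of 5 libraries in each case. Summed over the 10 genes, normalized counts were 8183 ± 485 untreated and 11699 ± 462 with tunicamycin (SD, n = 5 each). SLC3A2 held 16.8% ± 1.4 of the counts of the 10 genes in untreated libraries and 28.1% ± 2.61 in treated ones, and SLC38A2 held 23.7% ± 0.458 and 15.3% ± 1.19.

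Tunicamycin replicate 4 was the highest library for SLC3A2, SLC1A5, SLC6A9 and SLC1A4 among the treated ones. It also had the highest share of mitochondrial transcripts, 28.8%, where the treated libraries ranged from 18.3% upward and the untreated ones from 22.7% to 25.2%. Without it, the log2 fold changes of the first 3 genes were 1.2, 0.56 and 1.61. Without tunicamycin replicate 5, the shallowest library, 6 members were called higher and 0 lower, as with all libraries.

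Other amino acid transporters were called in both directions. Of 54 further genes listed for the plasma membrane, lysosome and mitochondrion, 53 were in the table, 19 had 0 counts in all libraries, 7 had too few counts and 27 were tested. Of these 27, edgeR's test called 10 higher and 5 lower, where 17.6% of all genes tested were called higher and 16.6% lower, with a median log2 fold change of 0.30. Among 11 tested genes of the plasma membrane list 4 were higher and 3 lower. Among 6 of the lysosome list 3 were higher and 0 lower, with 0 lower also at an unadjusted p under 0.05. DESeq2 called 2 of the lysosome list higher and 0 lower. Among 10 of the mitochondrial list 3 were higher and 2 lower. After thinning all libraries to 2234682 counts, 6 were called higher and 4 lower. With all counts, the share of lower genes was near that over all genes, and the share of higher genes was above that over all genes. After thinning, 1995 of all 12191 genes tested were called higher. No set test was run.

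SLC7A2, a second cationic amino acid carrier, rose most among these, from 98.2 ± 25.8 to 222 ± 46.7 normalized counts (SD, n = 5 each, log2 fold change 1.17, standard error 0.18). The mitochondrial glutamate carrier SLC25A22 had a log2 fold change of 0.88, and the lysosomal amino acid sensor SLC38A9 one of 0.82. SLC7A9, a light chain that pairs with SLC3A1, had one of 0.66. SLC25A38, a mitochondrial glycine carrier, and SLC25A44, a mitochondrial carrier of branched-chain amino acids, rose by 0.45 and 0.43 on the log2 scale. Each of these 6 genes was higher in 5 of 5 pairs, SLC25A44 by 0.0092 on the log2 scale in replicate 5, and SLC25A44 alone of the 6 overlapped between conditions.

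Among the genes that fell, SLC6A14, which carries neutral and cationic amino acids, went from 474 ± 73.2 to 280 ± 21.6 normalized counts (SD, n = 5 each, log2 fold change -0.76, standard error 0.11). SLC38A11, a relative of SLC38A1, had a log2 fold change of -0.86. The sideroflexins SFXN3 and SFXN2, of the family of mitochondrial serine transporters, had changes of -0.74 and -0.56. SLC38A11, SLC6A14 and SFXN3 were lower in 5 of 5 pairs, and SFXN2 in 4.

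**Figure D4:**
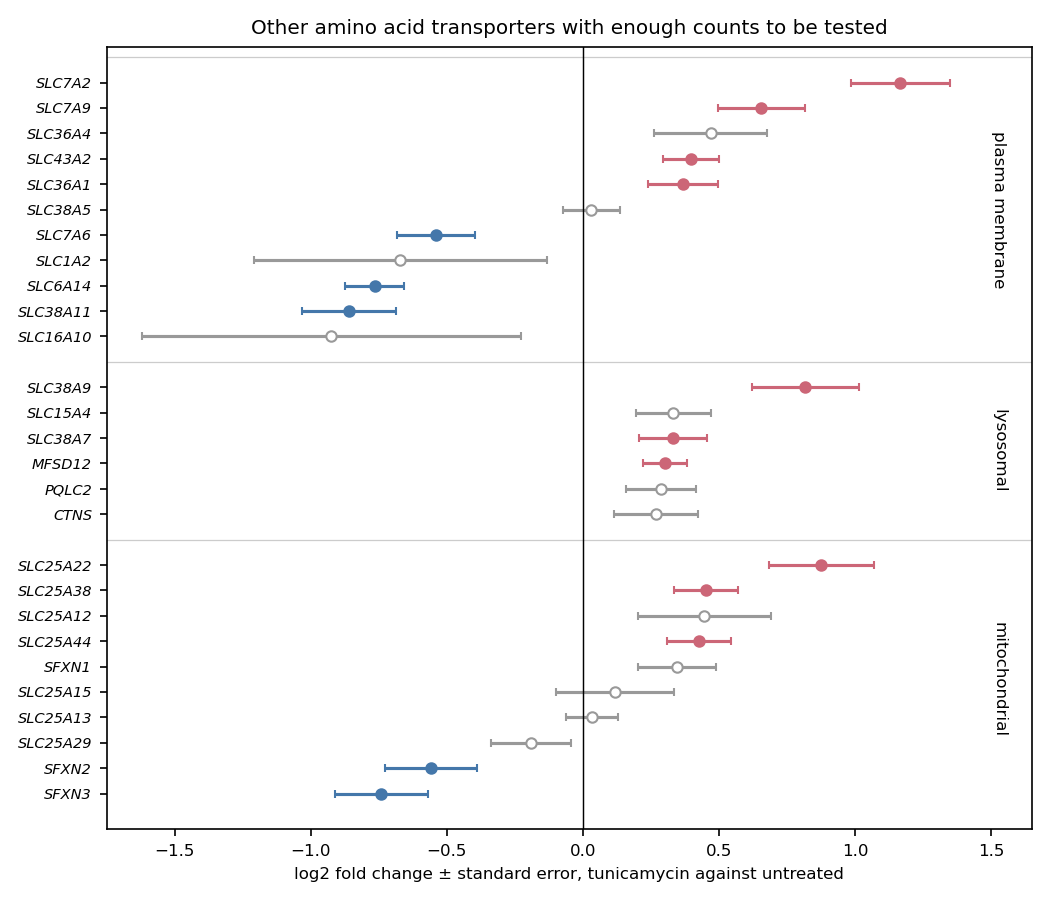
Log2 fold change with tunicamycin against untreated (horizontal axis, bars are standard errors) of the 27 tested transporters outside the 10 members, grouped by compartment. Filled red and blue points passed edgeR's test as higher and lower, and open points did not pass. SLC7A2 lies at 1.17, SLC38A11 at -0.86, and the 6 lysosomal genes all lie to the right of 0.

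For comparison, 24 genes known as targets of the ATF4 branch, other than transporters, were counted in the same fit. This list was chosen with earlier results of these data known, so its share of higher genes is no independent evidence. Of 23 tested, 14 were higher and 0 lower (0 at an unadjusted p under 0.05 and 0 by DESeq2), against 17.6% and 16.6% of all genes tested, with a median log2 fold change of 0.80. GTPBP2, a GTPase linked to ribosome rescue, had a log2 fold change of 4.23, with 3.44 to 29.6 normalized counts untreated and 50.7 to 426 with tunicamycin. CTH, which makes cysteine from cystathionine, had one of 1.82, XPOT, which exports tRNA from the nucleus, one of 1.71, and the transcription factor CEBPB one of 1.53. The other 9 tested genes of this list did not pass. CHAC1, which breaks down glutathione, was listed at 0 in all 10 libraries.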

How the data were processed

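The authors processed the reads with the nf-core RNA-Seq pipeline at its default settings, on hg19 with Ensembl release 87 transcripts. The authors deposited whole-number counts, raw and per gene, of 10 libraries (2234682 to 5029864 counts), without normalization or a filter. Which aligner, counting program and strand setting these defaults were is not given in the sources used here. All sample columns were used.

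Genes were filtered with edgeR's filterByExpr (minimum count 2, minimum total 10, as the authors did), which left 12733. Scaling by TMM and the quasi-likelihood test of edgeR 4.0.16 in R 4.3.3 followed, with condition as the only term, since the authors' DESeq2 test is not stated to use a block. P-values were adjusted over all tested genes by the Benjamini-Hochberg method. Standard errors are the absolute log2 fold change divided by the square root of F, and log2 ratios within pairs used a pseudocount of 0.5. Intervals and limits on 0 counts cover counting error or the spread between libraries only. Alternatives included DESeq2 1.42.0, other scalings and filters, a replicate block, thinning and leaving out each library.

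The series text places the 5 replicates on separate days, so the replicate number pairs an untreated and a treated library. When each library was centred on its condition's mean over 10736 genes, the 2 libraries of replicates 1 to 5 correlated at 0.317, 0.0171, 0.0391, 0.122 and 0.0864. The highest correlation of each untreated library with a treated library of another number was -0.0135, 0.115, 0.0417, 0.114 and 0.121, above that of the same number for replicates 2, 3 and 5, so that the pairing rests on the series text.

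The members and lists were chosen with earlier results of these data known. Named beyond the 10 members were up to 6 higher and 6 lower transporters and up to 4 ATF4 targets in each direction, by size of change among genes with an adjusted p under 0.05 and a mean of 20 normalized counts or more, and the light chains. Levels of markers were also listed, and CCDC24 was added after the overlap was seen. Positions come from GENCODE 44 on GRCh38, matched by Ensembl identifier, and start-site windows from RefSeq. No hg19 coordinate is given. Protein properties were not analysed here.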

Additional observations from a re-analysis of the deposited data

Results flagged for a closer look

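In 1 of 70 groups of 5 values (normalized counts of named genes, ratios and library measures), the value of 1 library was far outside the range of the remaining 4 of that condition, where chance gives about 3.5 such groups. It was untreated replicate 5 for SLC38A9, with 34.6 normalized counts against 24.1 to 26.8 in the other untreated libraries. The lowest treated library had 34.7, so that the conditions of SLC38A9 came close but did not overlap. None of the 10 members, the ratios or the library totals had such a library, and the cause was not tested.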

How the results depend on the processing

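The count of 6 members called higher was the same under each of the 10 other settings and with each library left out. The members called lower were 0 in the main edgeR fit and 2 with library size as the only scaling. They were 1 with DESeq2, with DESeq2 plus the replicate block, and in edgeR with that block. They were also 1 in edgeR with the default minimums of 10 and 15 in the filter, and with a filter blind to condition. With each library left out they were 0 to 1. The gene concerned was SLC7A5, joined by SLC1A4 (log2 fold change -0.27) with library size only. Adjusted p-values of SLC7A5 were 0.0208 to 0.123 over the 10 settings and 0.0327 to 0.125 with a library left out. The replicate block changed no other member's call. Other transporters called higher were 6 instead of 10 after thinning to the smallest library. With paired libraries (replicate block) and exact sign flips, the log2 differences of the 4 ratios were the same values. They were 1.02 for SLC3A2 over light chains, 0.998 for SLC7A11 over SLC7A5, -1.3 for SLC38A2 over SLC38A1 and -0.78 for SLC1A4 over SLC1A5. Sign flips of 5 pairs cannot give a p under 0.0625. With each library left out, the ratios had an exact permutation p of 0.00794, the smallest for 5 against 4. Depth limits the genes with few counts, and 19 listed transporters had none.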

Other observations

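Among untreated libraries, replicate 1 was the lowest for SLC7A11, SLC3A2, SLC7A1 and SLC38A1, and for SLC7A2 as well. Its pair had the largest log2 ratio of the 5 for SLC7A11 (1.07), SLC7A1 (1.27), SLC38A1 (1.51) and SLC7A2 (1.62), while for SLC3A2 that of replicate 4 (1.49) was larger than its 1.4. Without untreated replicate 1, the log2 fold changes were 0.72 for SLC7A11, 1.18 for SLC3A2, 0.79 for SLC7A1 and 1.08 for SLC38A1, and all were still called. This pattern was noticed in the data and was not tested.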
